A study of Mus musculus with 12 samples.

Results

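The integrin and laminin subunits of NE-4C mouse neural progenitor cells are described here across wildtype (WT) and Faf2 knockout (KO) cells, with and without retinoic acid (RA). Members were chosen by gene symbol alone, as every integrin alpha chain (Itga), integrin beta chain (Itgb) and laminin alpha, beta or gamma chain (Lama, Lamb, Lamc) in the table. This gave 37 of 57010 genes, made up of 18 integrin alpha, 8 integrin beta, 5 laminin alpha, 3 laminin beta and 3 laminin gamma chains. Of the 37, 21 had enough counts to be tested (8, 5, 4, 2 and 2 of these classes), 8 had at most 3 counts in every library, and the other 8 had more than 3 counts in at least 1 library but did not pass the filter on low counts.

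Laminins are trimers of an alpha, a beta and a gamma chain that assemble inside the cell and form the sheet-like scaffold of basement membranes, such as the one under the neuroepithelium. Integrins are the main receptors through which cells hold on to laminin and other matrix proteins. Each integrin is a dimer in which the alpha chain largely sets the ligand, and the beta chain links the receptor through talin and kindlin to actin. An RNA level gives neither the amount of a dimer or trimer nor its place in the cell.

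NE-4C cells come from the brain of mouse embryos at embryonic day 9 and lack p53, so all 4 groups share that background and the same serum-containing growth medium. The KO cells are 1 line in which CRISPR/Cas9 removed exon 4 of Faf2, which encodes an adaptor of endoplasmic reticulum associated degradation. Poly(A) RNA was sequenced from 3 cultures of each group, collected at separate passages: WT and KO cells that received no RA (WT NO, KO NO), and WT and KO cells given 1 µM all-trans RA for 24 h and collected 3 days after induction (WT RA, KO RA). The study asked how loss of Faf2 affects neural progenitor cells and their RA-induced neural differentiation. Since KO and WT are 1 line each, the effect of the deletion and any other difference between the lines cannot be told apart. Untreated cells are recorded as collected at the start of the time course, and RA-treated cells 3 days after induction. The effect of RA and that of the further days in culture therefore cannot be told apart. Wording such as "after RA" or "with RA" names the compared groups only. In bulk RNA, fewer cells of a type and less RNA per cell cannot be told apart either.

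Levels are given in CPM, that is counts scaled to a common library total, from estimated counts that were already corrected for gene length, so levels of different genes can be compared. Library totals ran from 17370069 to 30738717 counts, and 3 counts corresponded to 0.0837 to 0.297 CPM. Faf2 itself was at 21.0 to 25.4 CPM in KO NO, below every WT NO library (36.0 to 49.97), and at 18.7 to 36.1 CPM in KO RA against 35.1 to 49.0 in WT RA. Its counts cover the whole gene and not only the deleted exon. One library, KO RA 3, stood apart from all others: its TMM scaling factor was 0.394 against 0.872 to 1.28 elsewhere, its 100 highest genes took 62.5% of counts against 37.1% to 50.4%, and 23.5% of its counts were mitochondrial against 9.10% to 17.7%. Calls and member fold changes that involve it are given with and without it, and means, shares and ratios of KO RA include it. Ranges are those of scaled CPM, which the low factor raises in KO RA 3.

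A laminin-binding receptor and a laminin made up the main part of the subunit RNA. Itgb1, Itga6, Lamb1, Lamc1 and Lama5 had the highest levels of their classes in every group, and apart from these and Itgb5 no member described here exceeded 28.1 CPM in any library. The plot of levels by library shows this order and the few members that departed from it in 1 group.

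**Figure D1:**
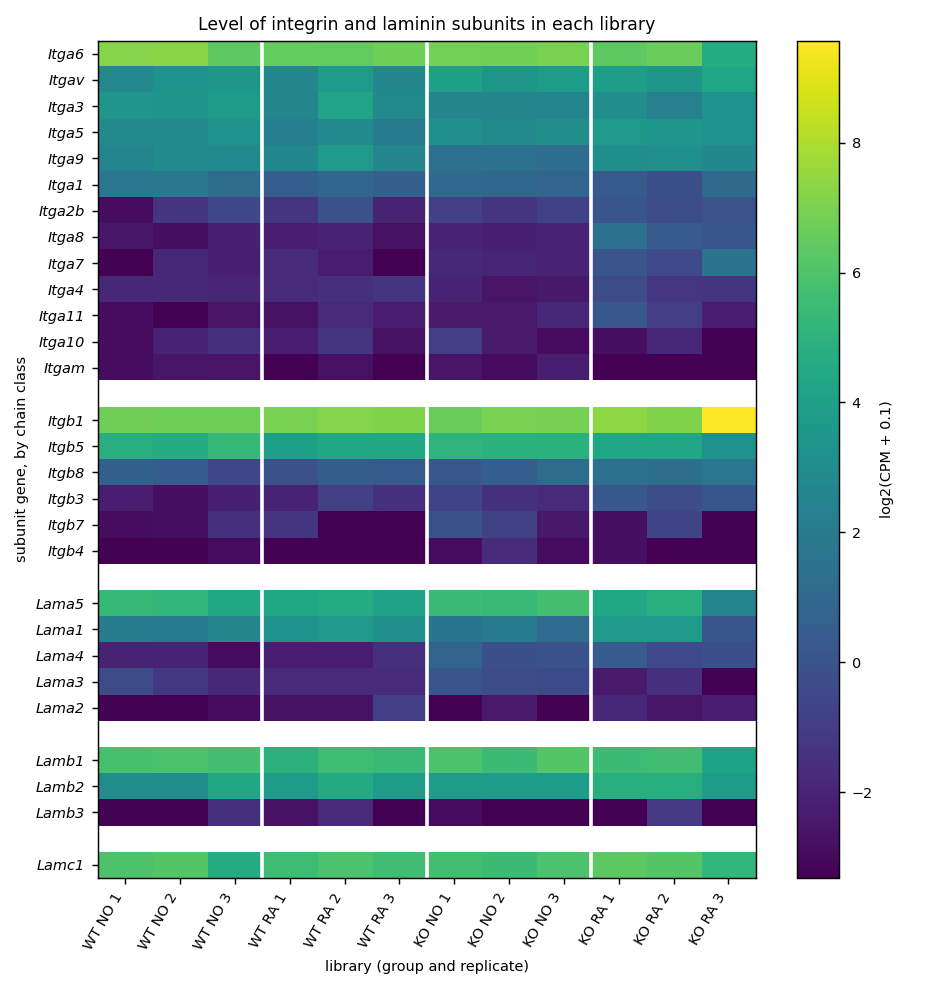
Level of the described members with more than 3 counts in at least 1 library, as log2(CPM + 0.1) in colour, with 1 column per library (3 per group) and the genes of each chain class ordered by mean level. Itga6, Itgb1, Itgb5, Lama5, Lamb1 and Lamc1 form the bright rows, and Itga8 and Itga7 are brighter in the 3 KO RA libraries than in the other 9.

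With all 12 libraries, the quasi-likelihood test of edgeR, adjusted by Benjamini-Hochberg over 16502 genes, called 1 of the 21 tested members, Itga9, higher in KO RA than in KO NO, where 5.48% of all genes were called. That share of members is no higher than the share of all genes. In the other comparisons edgeR called 0 of 21, where 1.14% (untreated KO against WT), 1.24% (RA-treated KO against WT), 0.406% (RA in WT) and 0% (the difference between the RA responses of KO and WT, the interaction) of all genes were called. At an unadjusted p under 0.05 edgeR had 5, 8, 3, 8 and 2 of the 21 members in these comparisons, in the order KO against WT in untreated cells, KO against WT with RA, RA in WT, RA in KO, and the interaction, where 12.2%, 17.6%, 12.5%, 25.2% and 8.62% of all genes had such a p. In the same order, DESeq2's Wald test, which also tested members that edgeR's filter left out, called 2, 5, 0, 6 and 0 members and 5.01%, 7.19%, 4.53%, 14.7% and 1.44% of all genes. Limma-voom with library quality weights called 7, 7, 8, 10 and 2 of the 21, and 21.7%, 18.1%, 21.7%, 27.5% and 6.07% of all genes. The members' median log2 fold change was 0.15, 0.46, −0.08, 0.38 and 0.26, against −0.02, 0.09, −0.01, 0.11 and 0.12 over all tested genes.

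Leaving KO RA 3 out raised the calls, among the members and across the table. All groups share 1 model and its estimate of spread, so this also changed comparisons that hold no KO RA library. Without it, edgeR called Itga9 and Lama4 between KO NO and WT NO (2 of the same 21 members, 8.77% of all genes), Itga5 between KO RA and WT RA (1 of 21, 9.85%), and Itgb5 and Lama1 between WT RA and WT NO (2 of 21, 10.8%). Between KO RA and KO NO it called Itga9, Lama1 and Lama5 (3 of 21, 16.0% of all genes), and in the interaction 0 of 21 (1.34% of all genes). These shares of members were no more than about that of all genes. Lama4 passed the filter on low counts through KO libraries alone, so its call is given as a description. Itga7 and Itgb7 also passed it through KO libraries alone, Itga7 through KO RA. Itgb3 would not have passed it without the KO RA group, nor Lama3 without the KO NO group, in which each had its highest mean. All of them are among the 21 members and enter the counts and medians given above. Itga8 and Itga11 passed the filter only when a library was left out, through the KO RA group in which they are high, and are left out of these counts. With Itga8 and Itga11 included, the median log2 fold change of the 23 members was then 0.40, 0.55, 0.01, 0.52 and 0.26 in the same order as above, against −0.01, 0.01, −0.00, −0.02 and −0.00 over all tested genes. Including genes that passed through KO RA can raise these medians by itself. They are therefore not comparable with the medians of the 21 members, and no conclusion is drawn from them.

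Counted by ranges alone, 9 of the 21 members had groups that did not overlap between KO NO and WT NO (5 higher, 4 lower in KO NO), where 30.7% of all tested genes did. Between KO RA and WT RA the number was 6 (all higher in KO RA, 20.9% of all genes), between WT RA and WT NO 6 (3 higher, 3 lower, 29.1%), and between KO RA and KO NO 11 (7 higher, 4 lower, 30.2%). The counts higher in KO NO or KO RA than in WT include Lama4, and both counts higher in KO RA include Itga7. These genes passed the filter on low counts only through KO libraries. Itgb3, which passed it only with the KO RA group, is in each count of higher members. Lama3, which passed it only with the KO NO group, is in the count lower in KO RA than in KO NO. The plot of fold changes gives every tested member in each comparison.

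**Figure D2:**
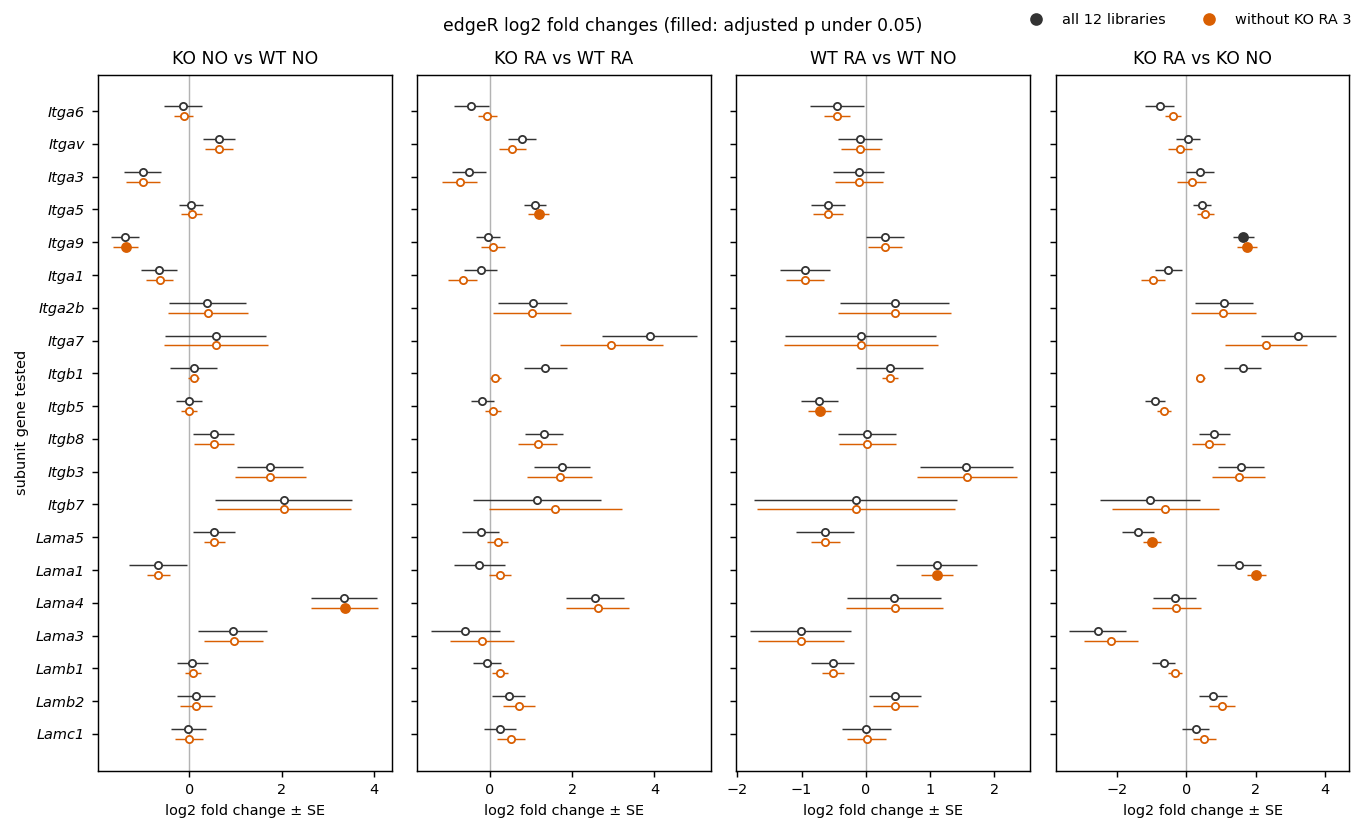
Log2 fold change with its standard error (x axis) of the tested members described here (y axis) in 4 comparisons, from edgeR with all 12 libraries (black) and without KO RA 3 (orange); filled points have an adjusted p under 0.05. With all libraries the 1 filled point is Itga9 in KO RA against KO NO, and Itgb1 moves from 1.63 to 0.40 in that comparison once KO RA 3 is left out.

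Itga9 encodes the alpha9 chain, which pairs with beta1 and binds tenascin-C, osteopontin and the EIIIA segment of fibronectin. It lies at chr9:118435722-118730072 on the forward strand (GRCm39, ENSMUSG00000039115). Its level was 5.56, 7.42 and 7.04 CPM in WT NO, 6.48, 12.2 and 5.87 CPM in WT RA, 2.63, 2.66 and 2.37 CPM in KO NO, and 8.39, 8.92 and 6.44 CPM in KO RA. The 3 KO NO libraries lay below all 9 others, and KO RA and WT RA overlapped. Without TMM factors KO RA 3 read 2.53 CPM and the KO NO libraries 3.07, 2.93 and 2.85 CPM, so KO RA and KO NO then overlapped.

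The mean of Itga9 was 7.91 ± 1.31 CPM (SD, n = 3) in KO RA and 2.56 ± 0.161 CPM in KO NO. The log2 fold change of KO RA against KO NO was 1.63 (SE 0.30, adjusted p = 0.0131 by edgeR), and it was 1.75 (SE 0.29, adjusted p = 0.00381) without KO RA 3. Leaving out KO NO replicate 1, 2 or 3 in turn kept it between 1.59 and 1.67. The edgeR adjusted p was then 0.0599, 0.0680 and 0.0655, so Itga9 was not called. The share of all genes called in this comparison fell as well, from 5.48% to 1.12%, 1.21% and 1.35%. In WT cells the ranges of RA-treated and untreated libraries overlapped, and the interaction, 1.34 on the log2 scale (unadjusted p = 0.00845), did not pass with edgeR (adjusted p = 0.425).

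In untreated cells Itga9 was lower in KO, with a log2 fold change of −1.38 (SE 0.30) that missed the threshold with all libraries (edgeR adjusted p = 0.0583). It passed without KO RA 3, with −1.37 (SE 0.27, adjusted p = 0.0130), and without WT RA 2 (adjusted p = 0.0344). As a share of all integrin alpha RNA in the same library, a measure that no scaling between libraries can alter, Itga9 took 1.72%, 1.85% and 1.502% in KO NO. It took 3.03%, 3.83% and 5.56% in WT NO, 5.60%, 8.57% and 4.47% in WT RA, and 6.25%, 6.46% and 8.45% in KO RA. KO NO was again below the other 9 libraries. The share also depends on Itga6, the largest part of the sum. Itga6 took 32.7% in KO RA 3 and 62.1% to 81.8% in the other libraries, and a lower Itga6 raises the shares of the other chains.

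Itga4, the other alpha chain of this subfamily and a receptor for VCAM-1, was at or below 0.677 CPM in every library and was not tested. The ligand Tnc (tenascin-C) rose in KO cells after RA, from 0.585, 0.592 and 0.530 CPM in KO NO to 24.9, 18.6 and 56.4 CPM in KO RA, a log2 fold change of 5.86 (SE 0.62, edgeR adjusted p = 0.000744). The highest of these 3 values was that of KO RA 3, and without it the log2 fold change was 5.23 (SE 0.50). Another ligand of alpha9, Spp1 (osteopontin), had a different profile, at 7.49, 8.64 and 2.23 CPM in WT NO, 15.9, 9.45 and 14.8 CPM in WT RA, 59.9, 58.9 and 60.8 CPM in KO NO, and 12.8, 9.67 and 70.2 CPM in KO RA. Every KO NO library of Spp1 was above every WT NO library, and KO RA 3 stood apart from the other KO RA libraries. With all libraries Spp1 was called in no comparison by edgeR, at 3.29 on the log2 scale between KO NO and WT NO (SE 0.74, adjusted p = 0.0634) and −0.96 between KO RA and KO NO (SE 0.68, adjusted p = 0.390). Without KO RA 3 these were 3.31 (SE 0.41, adjusted p = 0.00157) and −2.43 (SE 0.46, adjusted p = 0.00644), so that with KO NO as the base Tnc was higher and Spp1 lower after RA.

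The stretch of 250 bases before the start of the canonical transcript is shown for Itga9, the member called with all libraries, and for Lama1 and Lama5, the laminin alpha chains called in opposite directions without KO RA 3. The bases were read from the GRCm39 genome with the gene's strand as the upper strand, at chr9:118435472-118435721 (forward) for Itga9, chr17:68003973-68004222 (forward) for Lama1 and chr2:179867713-179867962 (reverse) for Lama5, and capitals mark GGGCGG or its complement CCGCCC, the GC box that Sp1 family factors can bind.
Itga9: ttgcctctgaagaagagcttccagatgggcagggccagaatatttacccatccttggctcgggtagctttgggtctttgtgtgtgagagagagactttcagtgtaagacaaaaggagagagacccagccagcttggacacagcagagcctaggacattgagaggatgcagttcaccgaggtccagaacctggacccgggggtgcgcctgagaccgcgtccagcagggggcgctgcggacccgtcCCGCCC
Lama1: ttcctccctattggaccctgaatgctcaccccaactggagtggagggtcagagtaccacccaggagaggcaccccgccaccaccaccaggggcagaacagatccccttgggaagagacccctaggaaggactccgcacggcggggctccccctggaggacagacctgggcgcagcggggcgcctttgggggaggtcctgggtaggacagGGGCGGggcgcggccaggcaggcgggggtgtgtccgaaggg
Lama5: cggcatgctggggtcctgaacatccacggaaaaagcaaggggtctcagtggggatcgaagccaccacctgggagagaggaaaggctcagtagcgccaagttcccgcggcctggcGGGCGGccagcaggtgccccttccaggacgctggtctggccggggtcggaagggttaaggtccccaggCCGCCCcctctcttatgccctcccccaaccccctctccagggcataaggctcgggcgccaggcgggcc
Neither AGGTCA, the consensus half-site of retinoic acid receptors, nor TATAAA occurs in these 3 windows on either strand. The variant half-sites AGTTCA (Itga9) and GGGTCA (Lama1) do occur, and variants were not counted in these windows. Among all 21 tested members, AGGTCA stood in the window of 2 (Lama3 and Lama4; 11.03% of 13360 protein-coding tested genes), TATAAA in that of 2 (Itgav and Lama4; 7.21%) and GGGCGG in that of 13 (50.3%), both strands counted. The retinoic acid response element DR5 is a pair of half-sites with a 5-base spacer. Its search also took variant half-sites, with A or G as the first base and G or T as the third. It was found within 1000 bases on each side of the start in 0 of 21 members and in 0.561% of all genes. These are matches of letters in a window and say nothing of binding.

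The beta chains were led by Itgb1, the partner of most alpha chains. Itgb1 was at 111, 107 and 106 CPM in WT NO, 125, 151 and 142 CPM in WT RA, 98.1, 124 and 123 CPM in KO NO, and 164, 142 and 760 CPM in KO RA. KO RA 3 stood far above all other libraries, the next of which was at 164 CPM, and without its TMM factor it still read 299 CPM. With all libraries the log2 fold change was 1.35 in KO RA against WT RA (SE 0.53, edgeR adjusted p = 0.229) and 1.63 in KO RA against KO NO (SE 0.53, adjusted p = 0.0995). Without KO RA 3 these came to 0.13 (adjusted p = 0.588) and 0.40 (adjusted p = 0.0654), and without KO RA 2 the second reached 2.09 (adjusted p = 0.0392).

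Itgb5 encodes the beta5 chain of the vitronectin receptor alphaV-beta5. It was at 28.4, 24.8 and 39.5 CPM in WT NO and at 15.5, 20.6 and 20.1 CPM in WT RA. In KO cells it was at 32.9, 29.7 and 29.8 CPM without RA and at 19.8, 19.7 and 9.80 CPM with it. In both genotypes every RA library lay below every untreated library.

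With RA, Itgb5 differed by a log2 fold change of −0.72 in WT (SE 0.29, edgeR adjusted p = 0.324) and −0.90 in KO (SE 0.29, adjusted p = 0.0930). Without KO RA 3 it was −0.72 (SE 0.18, adjusted p = 0.0309) in WT and −0.65 (SE 0.20, adjusted p = 0.0514) in KO, so only the WT difference passed then, and the difference between the genotypes was not called. KO RA 3 is not part of the WT comparison, where the fold change stayed and the SE, from the shared estimate of spread, fell. With only the WT libraries fitted, edgeR did not call Itgb5. Of the summed beta chain level in each library, Itgb5 took 18.7% to 27.0% in WT NO and 19.1% to 24.7% in KO NO, against 10.9% to 12.3% in WT RA and 1.26% to 11.9% in KO RA.

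Itgb8, which pairs with alphaV in a receptor that activates latent TGF-beta, was at 1.48, 1.18 and 0.579 CPM in WT NO and 0.817, 1.31 and 1.15 CPM in WT RA. In KO cells it was at 1.02, 1.36 and 2.29 CPM without RA and 2.53, 2.38 and 3.27 CPM with it. The KO RA libraries lay above the other 9, with a log2 fold change of 1.31 against WT RA (SE 0.46) that did not pass with edgeR (adjusted p = 0.189). Without TMM factors KO RA 3 read 1.29 CPM, below WT NO 1 (1.53), WT RA 2 (1.33) and KO NO 3 (2.75), among others. Itgb3, which pairs with alphaV and with the platelet chain alphaIIb, had 1.08, 0.715 and 0.990 CPM in KO RA and at most 0.498 CPM elsewhere, without a call. Itgb3 passed the filter on low counts only with the KO RA group. Without TMM factors it read 0.390 CPM in KO RA 3, below KO NO 1 (0.579). Itgb7 and Itgb4 had at most 28 and 7 counts in any library, and Itgb2 and Itgb6, the leukocyte and epithelial beta chains, stayed at or below 3 counts in all.

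**Figure D3:**
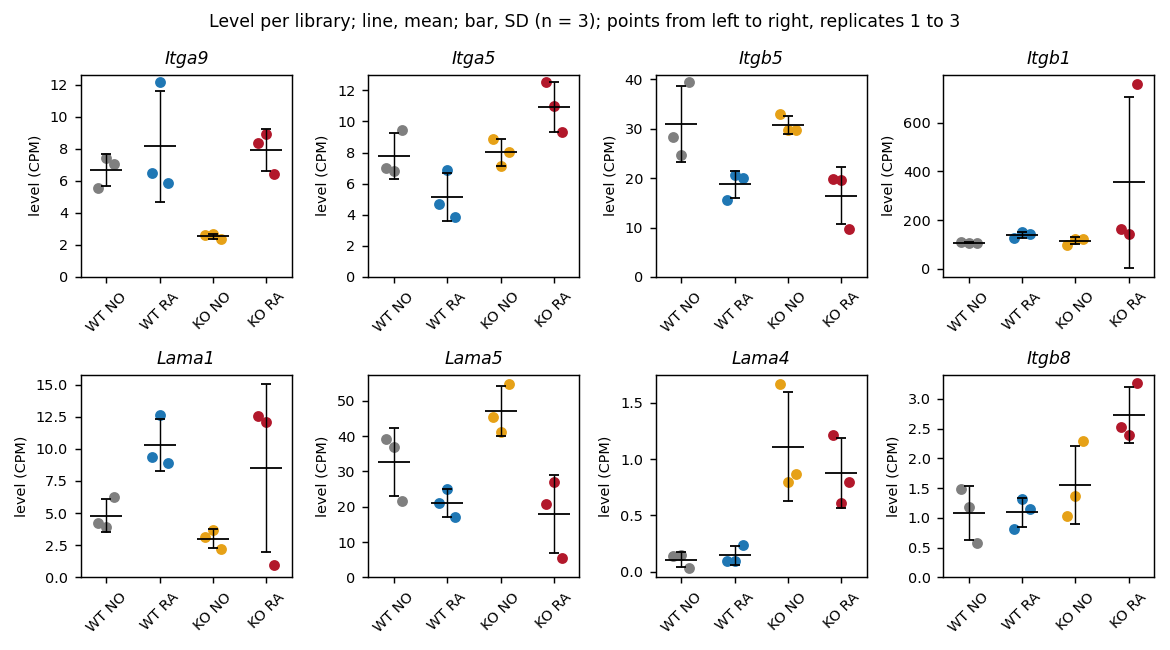
Level in CPM (y axis, linear) of 8 members in the 3 libraries of each group (points, replicates 1 to 3 from left to right), with the mean (line) and SD (bar). Itga9 is lowest in KO NO, Lama4 is higher in KO than in WT groups, Itgb8 is highest in KO RA, Itgb5 is lower with RA in both genotypes, and KO RA 3 stands far above in Itgb1 and far below in Lama1.

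Among alpha chains the laminin receptor chain Itga6 dominated. It was at 151, 156 and 82.5 CPM in WT NO, 90.4, 88.3 and 106 CPM in WT RA, 116, 114 and 125 CPM in KO NO, and 83.8, 99.0 and 25.0 CPM in KO RA. KO RA lay below KO NO without overlap, the other comparisons overlapped, and edgeR called none of them. Itga6 made up 62.1% to 81.8% of the summed alpha chain level in 11 libraries and 32.7% in KO RA 3.

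Itga3, the other broadly used laminin receptor chain, was at 10.6, 10.3 and 12.9 CPM in WT NO, 5.91, 18.4 and 7.02 CPM in WT RA, 5.65, 5.68 and 5.52 CPM in KO NO, and 7.85, 4.77 and 9.51 CPM in KO RA. KO NO lay below WT NO without overlap, at a log2 fold change of −1.002 (SE 0.40, edgeR adjusted p = 0.333), and it passed when only those 6 libraries were fitted (adjusted p = 0.0246). Itga7, the laminin receptor chain known from muscle, was at 0.947, 0.613 and 2.97 CPM in KO RA and at most 0.192 CPM in all other libraries, with 0 counts in WT NO 1 and WT RA 3. Itga7 passed the filter on low counts through KO RA alone, so a difference in this direction was built into its being tested. It was not called by edgeR with or without KO RA 3. Its span overlaps Tmt1b on the other strand.

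The alpha chains that bind the RGD motif of fibronectin and vitronectin were Itga5, Itgav and, at low level, Itga8 and Itga2b. Itga2b had means of 0.303, 0.418, 0.403 and 0.866 CPM in WT NO, WT RA, KO NO and KO RA, and edgeR called no comparison. Itga5, the classical fibronectin receptor chain, was at 7.002, 6.83 and 9.45 CPM in WT NO, 4.71, 6.88 and 3.87 CPM in WT RA, 8.87, 7.10 and 8.03 CPM in KO NO, and 12.5, 10.995 and 9.31 CPM in KO RA. KO RA lay above WT RA and above KO NO without overlap. Without TMM factors KO RA 3 read 3.66 CPM, within the range of WT RA (3.45 to 6.99 CPM) and below KO NO (7.81 to 10.3 CPM). The log2 fold change of KO RA against WT RA was 1.09 (SE 0.26, edgeR adjusted p = 0.0723), and it passed without KO RA 3, at 1.18 (SE 0.25, adjusted p = 0.0175), and without WT NO 3, at 1.10 (adjusted p = 0.0463). The interaction for Itga5 was 1.05 on the log2 scale (adjusted p = 0.472).

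Itgav, the alphaV chain, was at 6.62, 9.34 and 10.8 CPM in WT NO, 6.24, 12.7 and 6.21 CPM in WT RA, 16.7, 11.2 and 13.8 CPM in KO NO, and 14.3, 10.3 and 18.7 CPM in KO RA. Every KO NO library was above every WT NO library, and the RA groups overlapped. No comparison called it with edgeR. Itga8, a receptor chain for nephronectin, had at most 5 counts in each of the 9 other libraries and 56, 35 and 10 counts (2.53, 1.19 and 0.990 CPM) in KO RA. All 3 KO RA libraries were above the other 9. It did not pass the filter with all libraries and could pass only through KO RA, so no fold and no test are given.

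The collagen receptor chain that was tested was Itga1. It was at 3.20, 3.43 and 2.29 CPM in WT NO, 1.34, 1.84 and 1.43 CPM in WT RA, 1.99, 1.95 and 1.73 CPM in KO NO, and 1.17, 0.783 and 2.08 CPM in KO RA. WT NO lay above WT RA and above KO NO without overlap, at log2 fold changes of −0.95 for RA in WT (SE 0.39, edgeR adjusted p = 0.338) and −0.65 for KO against WT without RA (SE 0.38, adjusted p = 0.567). Its span overlaps Pelo on the same strand and Mocs2 on the other, and it lies on chromosome 13, which also holds Faf2 and where the median of all tested genes was −0.36 on the log2 scale between untreated KO and WT cells, against −0.47 to 0.17 on the other autosomes. The part of these in the Itga1 values was not tested. Itga11, another collagen receptor chain, had 23, 12 and 1 counts (1.04, 0.408 and 0.0990 CPM) in KO RA and at most 6 counts elsewhere. Itga10 had at most 14 counts in any library, Itga2b at most 22, Itgam at most 4, and Itga2, Itgad, Itgae, Itgal and Itgax at most 3.

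After Itga6, the order of alpha chain levels differed between the untreated lines. In WT NO the means ran from Itga3 (11.3 ± 1.43 CPM, SD, n = 3) over Itgav (8.91 ± 2.11), Itga5 (7.76 ± 1.47) and Itga9 (6.68 ± 0.985) to Itga1 (2.97 ± 0.607), and of these neighbours only Itga9 and Itga1 had ranges that did not overlap. In KO NO they ran from Itgav (13.9 ± 2.70) over Itga5 (8.002 ± 0.883), Itga3 (5.62 ± 0.0839) and Itga9 (2.56 ± 0.161) to Itga1 (1.89 ± 0.141), and no neighbours overlapped.

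Summed by ligand, alpha chains for laminin took 75.6% to 87.6% of the alpha chain level in WT NO, 75.1% to 86.1% in WT RA, 79.5% to 83.5% in KO NO and 49.1% to 75.5% in KO RA. Those for RGD ligands took 7.46% to 16.6%, 7.84% to 14.5%, 13.05% to 17% and 16.8% to 39.2% in the same order. The highest RGD share and the lowest laminin share were those of KO RA 3. No test was run on these shares, since 3 against 3 libraries cannot go below 0.1 in an exact permutation test.

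Laminin alpha chains were Lama5 and Lama1 for the most part, and their balance differed between untreated and RA-treated cells. Lama5, the alpha chain of laminins of many epithelia and vessels (chr2:179818166-179867712, reverse strand), was at 39.3, 36.9 and 21.5 CPM in WT NO, 20.9, 25.1 and 16.99 CPM in WT RA, 45.4, 41.1 and 54.9 CPM in KO NO, and 20.9, 27.0 and 5.55 CPM in KO RA. KO NO lay above WT NO and above KO RA without overlap, while WT RA and WT NO overlapped through WT NO 3. Set against untreated cells, the log2 fold change was −0.63 in WT (SE 0.45, edgeR adjusted p = 0.640) and −1.39 in KO (SE 0.46, adjusted p = 0.103). The KO value passed without KO RA 3, at −0.99 (SE 0.27, adjusted p = 0.0305), and without KO RA 2, at −1.82 (adjusted p = 0.0497).

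Lama1 encodes the alpha chain of the first laminin of the embryo (chr17:68004223-68129642, forward strand). It was at 4.22, 3.91 and 6.25 CPM in WT NO, 9.37, 12.6 and 8.93 CPM in WT RA, 3.13, 3.70 and 2.20 CPM in KO NO, and 12.5, 12.1 and 0.990 CPM in KO RA. WT RA was above WT NO in all libraries, and in KO cells 2 of the 3 RA libraries were above KO NO, while KO RA 3 had the lowest value of all 12. The log2 fold change with RA was 1.10 in WT (SE 0.63, edgeR adjusted p = 0.526) and 1.52 in KO (SE 0.64, adjusted p = 0.171). Without KO RA 3 it was 1.10 (SE 0.25, adjusted p = 0.0214) and 2.02 (SE 0.27, adjusted p = 0.00137). In WT, a comparison without that library, only the SE changed, and edgeR did not call Lama1 when only the WT libraries were fitted. KO NO was also below WT NO without overlap. Genes of chromosome 17, where Lama1 lies, came to a median of −0.47 on the log2 scale in that comparison, the lowest of the autosomes, and its part in the Lama1 value was not tested.

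Within each library, Lama1 took 9.46% to 22.3% of laminin alpha RNA in WT NO and 30.6% to 33.3% in WT RA, and 3.76% to 7.97% in KO NO and 13.6% to 35.9% in KO RA. All RA libraries were above the untreated libraries of their genotype in this share, KO RA 3 (13.6%) included, and all KO NO libraries were below all WT NO libraries. The ratio of Lama1 to Lama5 was 0.107, 0.106 and 0.290 in WT NO, 0.448, 0.503 and 0.524 in WT RA, 0.0687, 0.0900 and 0.0401 in KO NO, and 0.600, 0.446 and 0.182 in KO RA.

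**Figure D4:**
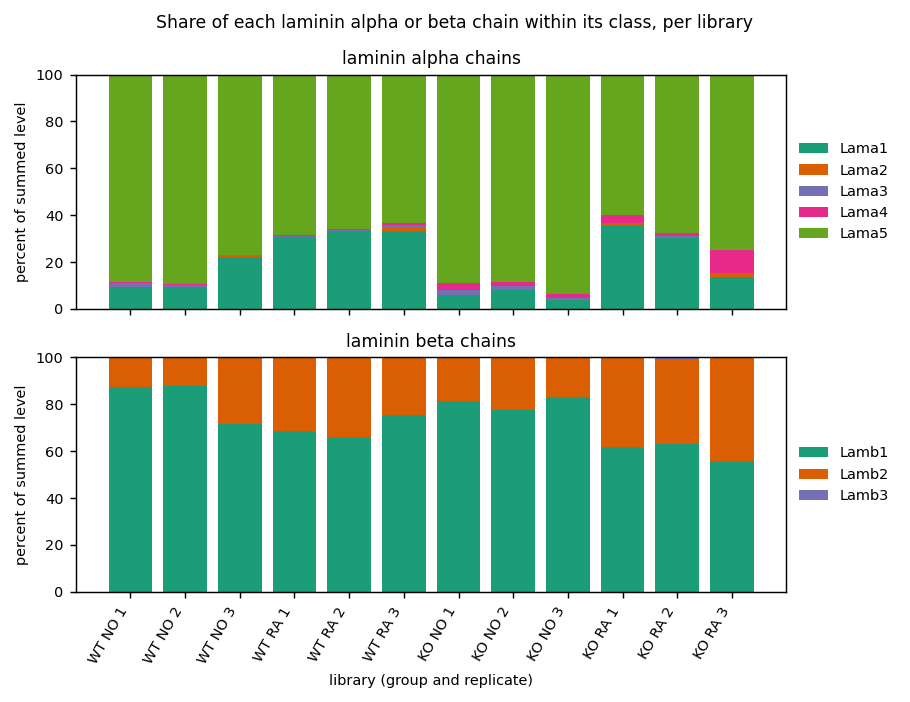
Share of each chain in the summed level of the laminin alpha or beta class (y axis, percent, each bar adds to 100) in each of the 12 libraries (x axis). Lama1 takes a larger share with RA in both genotypes, and Lamb2 reaches its highest shares in KO RA (36.3% to 44.2%).

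Lama4, the alpha chain of vascular and mesenchymal basement membranes (chr10:38841141-38998403, forward strand), was near the detection floor in WT and above it in KO cells. It was at 0.141, 0.148 and 0.0305 CPM in WT NO (4, 4 and 1 counts), 0.0961, 0.0969 and 0.239 CPM in WT RA, 1.67, 0.799 and 0.865 CPM in KO NO, and 1.22, 0.613 and 0.792 CPM in KO RA. All 6 KO libraries were above all 6 WT libraries. The log2 fold change was 3.35 without RA (SE 0.71, edgeR adjusted p = 0.0506) and 2.56 with RA (SE 0.71, adjusted p = 0.106), and without KO RA 3 the first passed at 3.36 (SE 0.72, adjusted p = 0.0201). Lama4 passed the filter through KO libraries alone, so a difference of this direction was built into its being tested, and with so few counts in WT the fold changes are loosely bounded. The gene's span overlaps Fam229b on the other strand, and whether strand was used in counting is not given in the sources used here.

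Lama3, the alpha chain of hemidesmosomal laminin, was at 0.669, 0.332 and 0.183 CPM in WT NO and 0.190 to 0.194 CPM in WT RA, and at 0.937, 0.710 and 0.642 CPM in KO NO and 0.0902, 0.238 and 0 CPM in KO RA. KO NO and KO RA did not overlap, and edgeR called no comparison. Lama3 passed the filter on low counts only with the KO NO group, in which it is high. Lama2, the alpha chain of muscle and Schwann cell laminin, had at most 9 counts in any library.

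Lamb1, the common laminin beta chain, was at 56.9, 58.7 and 53.3 CPM in WT NO, 30.6, 46.8 and 40.7 CPM in WT RA, 61.2, 46.3 and 69.2 CPM in KO NO, and 45.8, 48.4 and 17.6 CPM in KO RA. WT RA lay below WT NO without overlap, KO RA and KO NO overlapped, and edgeR called neither. Lamb2, the beta chain found at synapses and in the kidney filter, was at 8.13, 8.27 and 20.8 CPM in WT NO, 14.1, 23.8 and 13.2 CPM in WT RA, 13.9, 13.3 and 14.0 CPM in KO NO, and 28.1, 27.8 and 14.0 CPM in KO RA. WT NO 3 and KO RA 3 stood apart from their replicates, all groups overlapped, and edgeR called no comparison.

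The ratio of Lamb2 to Lamb1, read within libraries, was 0.143, 0.141 and 0.390 in WT NO, 0.460, 0.510 and 0.324 in WT RA, 0.228, 0.286 and 0.202 in KO NO, and 0.614, 0.575 and 0.792 in KO RA. Each KO RA library was above all 9 others, and WT RA and WT NO overlapped through WT NO 3. Lamb3, the beta chain of hemidesmosomal laminin, had more than 3 counts in 3 libraries only, at 0.244 CPM in WT NO 3, 0.194 CPM in WT RA 2 and 0.340 CPM in KO RA 2.

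Lamc1, the gamma chain of most laminins, was at 63.6, 70.1 and 24.4 CPM in WT NO, 48.0, 61.4 and 49.2 CPM in WT RA, 50.02, 45.3 and 60.8 CPM in KO NO, and 80.5, 69.9 and 37.1 CPM in KO RA. All groups overlapped. Lamc1 lies at chr1:153094597-153208774 on the reverse strand. Lamc3 stayed at or below 3 counts in all libraries.

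**Figure D5:**
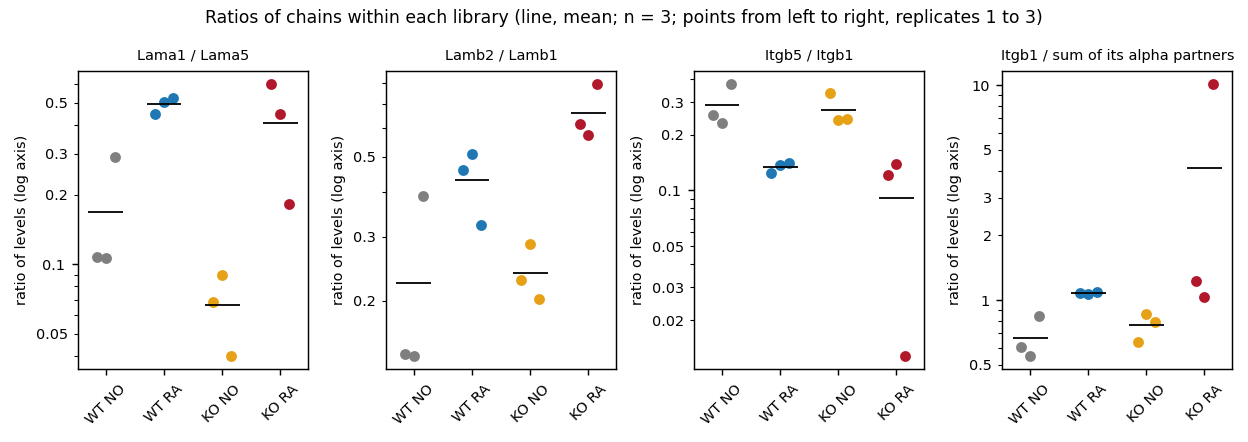
Ratios of chain levels within each library (y axes, log scale) for Lama1 to Lama5, Lamb2 to Lamb1, Itgb5 to Itgb1, and Itgb1 to the sum of its alpha partners, with 3 libraries per group (points, replicates 1 to 3 from left to right) and their mean (line). The first is higher in RA than in untreated libraries within each genotype, the third is lower with RA within each genotype, and in the fourth KO RA 3 stands at 10.1 against at most 1.23 elsewhere.

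Taking the chain with the lower level as the limit of each known pair, the receptor with the most RNA was alpha6-beta1, at 100 ± 15.3 CPM (SD, n = 3) in WT NO, 94.8 ± 9.52 CPM in WT RA, 112 ± 12.7 CPM in KO NO and 69.3 ± 39.1 CPM in KO RA. Its lower chain was Itga6 in every RA library and Itga6 or Itgb1 in untreated ones. The vitronectin receptor alphaV-beta5 was limited by Itgav in every library but KO RA 3, where Itgb5 was lower, and came to 8.91 ± 2.11, 8.38 ± 3.74, 13.9 ± 2.70 and 11.5 ± 2.46 CPM in the same order. The pair alpha6-beta4 was limited by Itgb4 to at most 0.207 CPM in any library. Itgb1 was below the sum of its alpha partners in all untreated libraries (ratio 0.551 to 0.840 in WT NO and 0.641 to 0.863 in KO NO) and above it in all RA libraries (1.07 to 1.09 in WT RA, 1.23, 1.03 and 10.1 in KO RA).

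Among laminin trimers, the alpha5-beta1-gamma1 combination had the highest limit in WT NO, WT RA and KO NO and shared it with alpha5-beta2-gamma1 in KO RA. It was set by Lama5 in every library, at 32.6 ± 9.68 CPM in WT NO, 21.0 ± 4.03 CPM in WT RA, 47.1 ± 7.08 CPM in KO NO and 17.8 ± 11.1 CPM in KO RA. That of alpha1-beta1-gamma1, set by Lama1, was 4.80 ± 1.27, 10.3 ± 2.01, 3.01 ± 0.755 and 8.53 ± 6.53 CPM.

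The genes that work with these subunits were read from 5 lists. Shares of all genes follow in the order untreated KO against WT, RA-treated KO against WT, RA in WT, RA in KO, and the interaction. EdgeR called 1.14%, 1.24%, 0.406%, 5.48% and 0% of all genes, and 12.2%, 17.6%, 12.5%, 25.2% and 8.62% had an unadjusted p under 0.05. Without KO RA 3 it called 8.77%, 9.85%, 10.8%, 16.0% and 1.34%. Of the adaptor and activator genes that join integrins to actin, 25 of 26 were tested with edgeR. Actn1, an actin-crosslinking alpha-actinin, rose in KO cells after RA (log2 fold change 0.95, SE 0.19, adjusted p = 0.0156) and was higher in KO RA than in WT RA (1.22, SE 0.19, adjusted p = 0.0150). Parvb, a parvin that binds integrin-linked kinase, fell in KO cells after RA (−2.16, SE 0.44, adjusted p = 0.0190). In the other comparisons edgeR called 0 of 25, with 2 (untreated KO against WT), 3 (RA in WT) and 2 (interaction) at an unadjusted p under 0.05. The list's median log2 fold change lay between −0.06 and 0.20 in the 5 comparisons. The calls without KO RA 3 were 1 higher and 1 lower (untreated KO against WT), 1 and 1 (RA-treated KO against WT), 0 and 2 (RA in WT), 1 and 1 (RA in KO), and 0 in the interaction, with Parvb and Zyx (zyxin) lower after RA in WT cells. Tln1 (talin) and Ptk2 (focal adhesion kinase) were among those not called, at 24.8 ± 3.78, 21.9 ± 3.87, 27.8 ± 2.56 and 27.0 ± 3.14 CPM for Tln1 and 26.5 ± 1.38, 23.9 ± 1.60, 26.8 ± 1.63 and 23.3 ± 7.98 CPM for Ptk2 in WT NO, WT RA, KO NO and KO RA. Of 8 integrin-associated membrane proteins such as tetraspanins, 0 of 8 were called in any comparison with edgeR and all 12 libraries, where 3 (KO RA against WT RA) and 4 (KO RA against KO NO) had an unadjusted p under 0.05, and 0 in the others. Their median log2 fold change was highest, 0.92, in KO RA against KO NO, where that of all genes was 0.11. EdgeR without KO RA 3 called Cd151, a tetraspanin partner of laminin-binding integrins, lower in KO than in WT, both untreated (−0.80, SE 0.15, adjusted p = 0.0127) and with RA (−0.89, SE 0.18, adjusted p = 0.0143), and the second of these was 0.72 with all libraries. It also called Cd63 higher after RA in both genotypes and Slc3a2 lower after RA in KO, 1 and 2 of 8 genes, and 0 in the interaction.

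Of 12 basement membrane partners of laminin, all tested, 3 rose in KO cells after RA, where edgeR called 5.48% of all genes. EdgeR called 0 in the other comparisons, with 1, 1, 0 and 3 at an unadjusted p under 0.05 in KO against WT without RA, KO against WT with RA, RA in WT and the interaction. Of all genes, 12.2%, 17.6%, 12.5% and 8.62% had such a p there. The list's median log2 fold change in KO RA against KO NO was 0.67. Leaving out KO RA 3, edgeR called 6 higher (Nid1, Col4a1, Col4a2, Ntn4, Fbln1 and Smoc1) and 1 lower (Nid2) in that comparison, 1 higher in KO NO than in WT NO (Nid2), 1 higher in KO RA than in WT RA (Fbln1), and 0 in the other comparisons. Of all genes, 16.0% (KO RA against KO NO), 8.77% (KO NO against WT NO) and 9.85% (KO RA against WT RA) were then called. Nid1, which links laminin to type IV collagen, was at 1.40, 1.98 and 2.29 CPM in KO NO and 15.2, 4.46 and 6.34 CPM in KO RA (log2 fold change 2.19, SE 0.55, edgeR adjusted p = 0.0423). Col4a2, a type IV collagen chain, had a log2 fold change of 1.00 (SE 0.26, adjusted p = 0.0483). Ntn4, a netrin that binds laminin, was at 0.885 to 2.07 CPM in KO RA and at or under 3 counts in each KO NO library, so no fold is given (adjusted p = 0.0101). Hspg2, the proteoglycan perlecan, was not called, at 16.8 ± 1.84, 14.1 ± 4.84, 13.4 ± 3.84 and 18.7 ± 3.76 CPM in the 4 groups.

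Of 15 genes for laminin receptors other than integrins, 12 were tested, with medians between −0.32 and 0.24 on the log2 scale. Sgce (epsilon-sarcoglycan) was higher in KO RA than in WT RA, at 46.0, 37.9 and 157 CPM against 10.95, 10.9 and 14.5 CPM, with the highest value in KO RA 3 (log2 fold change 2.73, SE 0.50, edgeR adjusted p = 0.0286, and 1.79 without KO RA 3). In KO cells after RA, Sgcb (beta-sarcoglycan) rose (1.72, SE 0.40, edgeR adjusted p = 0.0343) and Bcam, a receptor for laminin alpha5, fell from 17.2, 10.7 and 16.0 CPM to 6.22, 3.00 and 3.96 CPM (−1.73, SE 0.34, adjusted p = 0.0171). Of all genes edgeR called 1.24% between KO RA and WT RA and 5.48% between KO RA and KO NO. In the other 3 comparisons edgeR called 0 of 12 with all libraries, with 1 (untreated KO against WT), 1 (RA in WT) and 2 (interaction) at an unadjusted p under 0.05. Of all genes, 12.2%, 12.5% and 8.62% had such a p there. Without KO RA 3 edgeR called 1 higher (untreated KO against WT), 3 higher and 1 lower (RA-treated KO against WT), 1 higher and 1 lower (RA in WT), 1 higher and 1 lower (RA in KO), and 0 in the interaction. In the same order it then called 8.77%, 9.85%, 10.8%, 16.0% and 1.34% of all genes. Dag1 (dystroglycan) was not called with all libraries, at 82.0 ± 3.19, 72.9 ± 4.83, 88.9 ± 9.11 and 64.8 ± 34.0 CPM.

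Of 15 other integrin ligands, 13 were tested, and their median log2 fold change was 0.08, 1.15, 0.20, 0.34 and 0.42 in the 5 comparisons. In the same order edgeR called 1.14%, 1.24%, 0.406%, 5.48% and 0% of all genes. Between KO NO and WT NO edgeR called 1, Ccn2, a matricellular ligand, at 31.6, 18.1 and 26.7 CPM in KO NO against 2.22, 1.88 and 0.549 CPM in WT NO (log2 fold change 4.04, SE 0.51, adjusted p = 0.00484). Between KO RA and WT RA it called 3, all higher in KO RA: Tnc (3.41, adjusted p = 0.0165), Ccn1 (1.73, adjusted p = 0.0482) and Ccn2 (3.92, adjusted p = 0.00750). In WT cells after RA it called 1, Tgfb1, whose latent form alphaV integrins bind, with a log2 fold change of −2.09 (SE 0.31, adjusted p = 0.0307). In KO cells after RA Tnc, Vcam1 and Thbs1 rose and Tgfb1 fell (−1.73, SE 0.31, adjusted p = 0.0114). Thbs1, thrombospondin, had a log2 fold change of 2.74 (SE 0.54, adjusted p = 0.0171), and Vcam1, a ligand of alpha4 integrins, was at 6.09, 1.57 and 3.76 CPM in KO RA with 1 count in each KO NO library, so no fold is given. Fn1 (fibronectin), the main ligand of alpha5-beta1, was at 144, 132 and 105 CPM in KO RA and at 35.7 to 91.6 CPM in the other 9 libraries, and with all libraries it was not called (log2 fold change 0.96 in KO RA against KO NO, SE 0.26, adjusted p = 0.0585). Fn1 passed in that comparison without KO RA 3 (1.07, SE 0.23, adjusted p = 0.0119) and against WT RA (0.88, SE 0.23, adjusted p = 0.0391). The calls in the list were then 2 higher (untreated KO against WT), 5 higher (RA-treated KO against WT), 3 higher and 1 lower (RA in WT), 6 higher and 2 lower (RA in KO), and 1 higher and 1 lower in the interaction, namely Tnc and Spp1. Of all genes, 8.77%, 9.85%, 10.8%, 16.0% and 1.34% were then called in the same order.

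Markers of other cell types moved with some of these values. The summed level of 7 mesenchymal markers was 42.0 to 61.6 CPM in WT NO, 94.6 to 156 in WT RA, 37.3 to 43.5 in KO NO and 170 to 316 in KO RA, with all 7 above the floor of 3 counts in 3 groups and 6 of 7 in KO NO. The sum of 6 endothelial markers was 0.591 to 2.81, 1.53 to 2.47, 1.07 to 2.01 and 6.44 to 14.6 CPM, with 3, 5, 3 and 6 of 6 above the floor, and the defining marker Cdh5 at 0 in WT NO and KO NO. In scaled CPM, Itga9, Itga8, Itga7, Itgb3 and Nid1 were higher in KO RA than in KO NO without overlap. The part of such cells in their values was not tested. The sum of 6 epithelial markers was 86.4 to 145, 78.0 to 136, 142 to 207 and 70.9 to 106 CPM, with 5, 5, 6 and 6 of 6 above the floor, and its part in the values of Lama5 and Lama3, whose means were also highest in KO NO, was not tested. The sum of 7 neuron markers was 78.1 to 110, 139.6 to 161, 70.2 to 88.3 and 144 to 204 CPM, with all 7 above the floor in each group and every RA library above every untreated one. The sum of 5 astroglia markers was 12.1 to 19.1, 10.8 to 17.6, 12.2 to 15.2 and 28.6 to 166 CPM, with 3, 4, 4 and 3 of 5 above the floor and the defining marker Aqp4 at 0 in WT NO and WT RA. Between KO RA and KO NO edgeR called 1 of the 3 tested astroglia markers higher, where it called 5.48% of all genes. The median log2 fold change of these markers was −0.04 there, so the higher sum was not a rise of all of them. Itgb5, Lama5 and the share of Lama1 in laminin alpha RNA also differed between RA and untreated cells, Itgb8 and Itga7 were highest in KO RA, and the part of neurons or astroglia in these values was not tested. The 7 endoderm markers summed to 5.397 to 7.42, 5.11 to 8.77, 2.46 to 3.61 and 4.85 to 8.61 CPM. The 6 haematopoietic markers summed to at most 0.693 CPM in any library. The 7 neural progenitor markers that check the label of the cells were above the floor in all groups, with sums of 280 to 335, 312 to 339, 266 to 307 and 181 to 391 CPM.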

How the data were processed

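Poly(A) RNA of 12 NE-4C cultures, 3 per group, was sequenced by the authors and processed with the nf-core/rnaseq pipeline (STAR and Salmon) against the GRCm39 mouse genome. The deposited table holds 57010 genes as estimated counts per gene and library, which the authors' pipeline had corrected for gene length but not normalised between libraries. Over 3851 genes above 0 in 1 library only, values fell with exonic length (Spearman correlation −0.673, across genes that are not independent), as a length correction leaves them. The estimated counts were rounded to whole numbers. Libraries held 17370069 to 30738717 counts, so 3 counts, taken as the floor, came to 0.0837 to 0.297 CPM. These limits cover counting error only.

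Groups came from the sample labels. Genes were filtered with filterByExpr, scaled by TMM and fitted with edgeR 4.0.16 (R 4.3.3, robust quasi-likelihood, 1 model over all 12 libraries), giving 16502 tested genes and residual degrees of freedom of 8. Benjamini-Hochberg adjusted p under 0.05 over all tested genes was a call. DESeq2 1.42.0, limma 3.58.1 (voom with quality weights), DESeq2 size factors, other filters, fits of the compared groups only, a replicate block and leaving out each library were alternatives. CPM is the count divided by the scaled library total. Shares and ratios were taken within a library and were not tested, and 3 libraries against 3 cannot give an exact permutation p below 0.1.

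Replicate numbers did not pair the libraries across groups. All replicates differed by more than counting noise. 1 member is not reported here. The other members were named, those at the floor by name only, and called members and the highest of each chain class were given by library. The members and lists were chosen with earlier results of these data known. The passages of 1 line are the replicates, so p-values measure the spread between passages. Promoter windows were read from GRCm39 with GENCODE starts. Plots were drawn with matplotlib 3.10.9.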

Additional observations from a re-analysis of the deposited data

How the results depend on the processing

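The number of members called depended on the test and on single libraries. A chosen set of 21 fold changes, each of 1 member in 1 comparison, was recomputed under 17 to 19 alternatives each. This set is not the 21 tested members. Its fold changes kept their direction (349 values kept their side of the threshold, 42 passed it only under the alternative and 3 lost it). Of all member fold changes, 13 had another sign without KO RA 3, and 0 of these were called with or without it. In RA-treated KO against WT, Lama5 went from −0.23 to 0.19, Lama1 from −0.25 to 0.25, Lamb1 from −0.07 to 0.26 and Itgb5 from −0.18 to 0.07, and Itgav went from 0.05 to −0.19 for RA in KO. In the order KO against WT in untreated cells, KO against WT with RA, RA in WT, RA in KO, and the interaction, edgeR called 0, 0, 0, 1 and 0 members (1.14%, 1.24%, 0.406%, 5.48% and 0% of all genes). DESeq2 size factors in edgeR gave 2, 1, 0, 1 and 0 (1.22%, 1.51%, 0.394%, 6.76% and 0%), DESeq2's Wald test 2, 5, 0, 6 and 0 (5.01%, 7.19%, 4.53%, 14.7% and 1.44%), and limma-voom with quality weights 7, 7, 8, 10 and 2 (21.7%, 18.1%, 21.7%, 27.5% and 6.07%). Without a filter beyond 1 count the numbers were 0, 0, 0, 2 and 0 (0.554%, 0.495%, 0.149%, 2.02% and 0%), with at least 10 counts in every library 0, 0, 0, 1 and 0 (0.371%, 0.691%, 0.311%, 5.71% and 0%), and with only the groups compared 3, 0, 0 and 2 (4.71%, 0.108%, 3.71% and 1.28%). Leaving out each library in turn gave 0 to 2, 0 to 2, 0 to 2, 0 to 4 and 0 to 0, where the shares of all genes ran from 0.231% to 8.77%, 0.109% to 9.85%, 0% to 10.8%, 1.12% to 16.0% and 0% to 1.34%. The highest numbers were those without KO RA 3 (without WT NO 3 as well for RA-treated KO against WT), and the 0 in KO RA against KO NO without any 1 of the 3 KO NO libraries, when KO NO kept 2 libraries. Several of these numbers include Itga8, which can pass the filter only through KO RA, the group in which it is high, and which edgeR did not test with all 12 libraries. The cause of these differences was not tested. With the replicate block the numbers were 0, 0, 0, 1 and 0 (0.339%, 0.358%, 0.0606%, 2.83% and 0% of all genes), so the pairing changed no count. The correlations of same-numbered libraries ran from −0.215 to 0.0854 over 18 pairs, with 0 over 0.1, so the numbers mark no shared source in these data. Without TMM scaling, 17 of 148 group means moved by more than 1 SD, and shares and ratios cannot move. Depth limits members with few counts, such as Lama4 with at most 57 in any library.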
